A study of Mus musculus with 10 samples.

Results

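The genes of the cytosolic ribosome were followed in mouse prostate luminal epithelial cells before castration, after it and after testosterone was given back. A gene belonged to the set if a row of the array was annotated with its symbol alone and that symbol was Rps or Rpl followed by a digit, Rplp0, Rplp1, Rplp2 or Rpsa, with Rps6k kinases and symbols holding -ps or -rs left out. This gave 46 genes of 30142 measured, 26 with large subunit symbols and 20 with small subunit symbols, and the row with the highest mean over the arrays stood for each gene. Of the 46, 33 are canonical subunits (18 large, 15 small) and 13 are paralogs, RefSeq pseudogenes or a binding protein that the symbols also take in. Many other subunits were not in the set, because 53 rows name a ribosomal protein gene beside other symbols, among them those of Rpl3, Rpl5, Rps2, Rps3, Rps6, Rplp1 and Rplp2.

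The cytosolic ribosome makes nearly all cell proteins. Its small subunit reads the messenger RNA and its large subunit joins the amino acids, and each canonical ribosomal protein sits at a fixed place on ribosomal RNA. The messenger RNAs of most of these proteins begin with a run of pyrimidines, the 5′ terminal oligopyrimidine tract, through which mTOR signalling controls their translation. Prostate luminal cells are secretory cells that depend on androgen.

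All mice were males carrying Hoxb13-rtTA and TetO-H2BGFP, in which the Hoxb13 promoter, active in prostate luminal cells, drives a doxycycline-dependent nuclear green fluorescent protein. All drank doxycycline at 2 mg/ml for 1 week. Intact mice were untreated (n = 3 arrays). No age was listed for them, so whether they differed in age from castrated mice is not known. Castrated mice had their testes removed at 12 weeks of age and their prostates regressed for 6 weeks (n = 3). Regenerated mice were castrated at the same age of 12 weeks, regressed for 6 weeks and then carried testosterone implants for 4 weeks (n = 4), so time after surgery and age cannot be told apart from testosterone. Cells were sorted as fluorescent, CD24 positive and CD49f intermediate, without CD45, CD11b or the macrophage antigen encoded by Adgre1, and their RNA was put on Affymetrix ClariomD (MTA-1.0) arrays. Arrays of a group are titled biological replicates, but whether each came from 1 animal or from pooled animals is not stated, so that the p-values cover only the variation among these arrays. In RNA from sorted cells, fewer cells of a type and less RNA per cell cannot be told apart.

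Values are log2 intensities made with RMA, which brings arrays towards a common distribution, so a change shared by all transcripts could go unseen. The deposited arrays still differed somewhat. Their median over non-control rows was on average 4.07 in intact, 4.13 in castrated and 4.09 in regenerated arrays. The highest value was 19.53 in regenerated replicate 4 and 19.72 to 19.93 in the other arrays. The number of arrays limits the precision. The highest background control value was 6.40, and 4 of the 46 genes (Rpl10l, Rpl39l, Rpl3l and Rps23rg1) had all 3 group means under it. Regenerated replicate 4 stood apart: on the first principal component of all genes it lay at 3.03, the other regenerated arrays at -30.98 to -23.23, intact arrays at -47.63 to -40.47 and castrated arrays at 64.13 to 75.48. Results are therefore also given without it.

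Ribosomal protein genes were higher in castrated than in intact cells. The mean over the 46 genes was 12.10, 12.15 and 12.19 in the intact arrays and 12.47, 12.50 and 12.71 in the castrated arrays, and it was 12.34, 12.14, 12.28 and 11.89 in the regenerated arrays. The castrated arrays all lay above every other array, and regenerated replicate 4 lay below every intact array. Relative to its intact mean, a gene was higher in castrated arrays for 39, 38 and 41 of the 46 genes, and in the regenerated arrays for 41, 18, 39 and 9 genes.

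**Figure D1:**
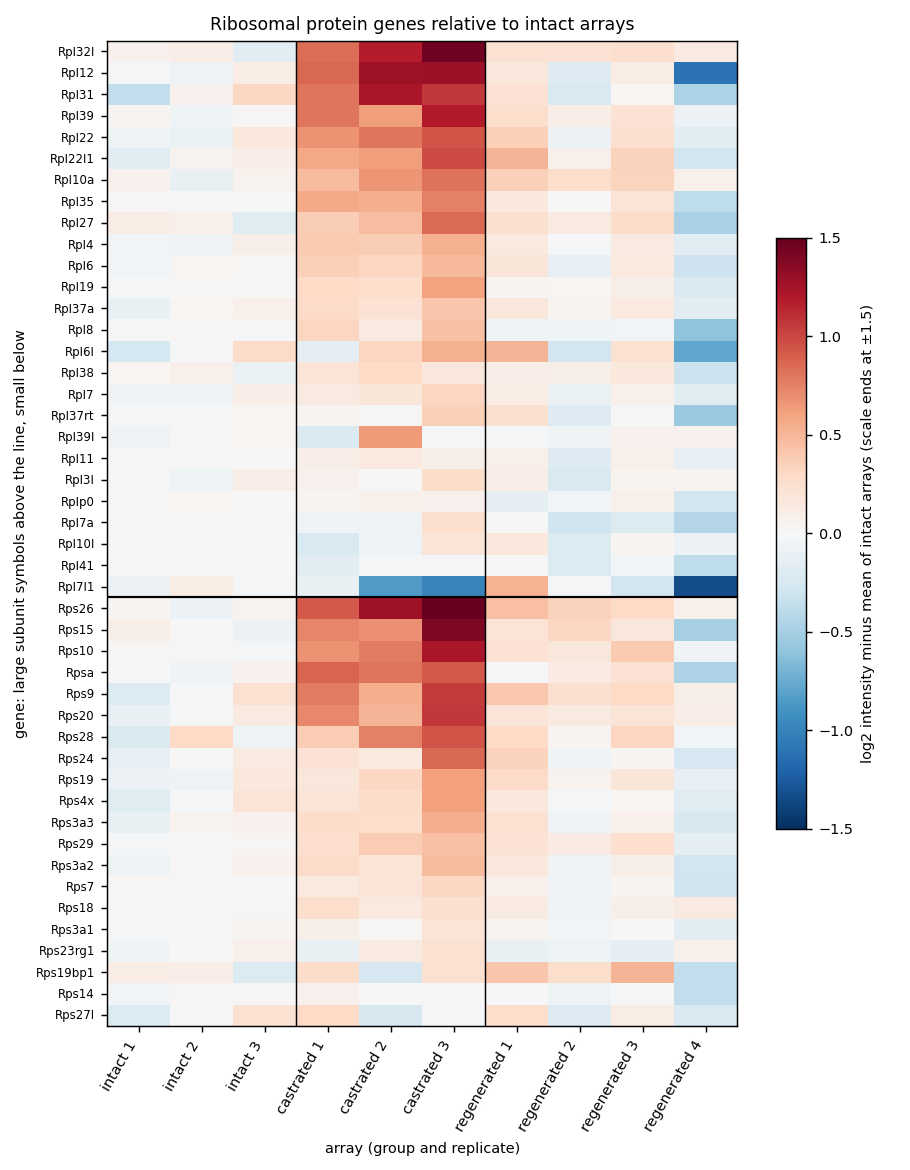
Log2 intensity of each of the 46 genes (rows, large subunit symbols above the line and small below) in each of the 10 arrays (columns), minus the gene's mean over the intact arrays; red is higher, blue is lower and the colour scale ends at 1.5. The 3 castrated columns are red for most genes, and regenerated replicate 4 is blue for most, while Rpl7l1 has the opposite colour in castrated replicates 2 and 3.

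Between castrated and intact cells, limma (adjusted p under 0.05 over all 30142 genes, called changed here) called 10 of the 46 genes, all higher. That is 21.7% of the set. Over all genes 8.01% were called, 4.82% higher and 3.19% lower, and over the 10004 genes with a group mean above the highest background value 18.1% were called, 990 higher and 819 lower. The share of the set that was called is thus near that of other genes with measurable signal, whereas none of its called members was lower. The median difference was 0.36, against 0.04 over all genes and 0.08 over the 10004 genes, and 43 of the 46 differences were above 0. The arrays of the 2 groups did not overlap for 34 of the 46 genes, castrated being higher in 32 and lower in 2 (Rpl41 and Rpl7l1). Over all genes such separation was seen in 17.4% (higher) and 11.5% (lower). Among the 10004 genes it was more common, in 2571 (higher) and 2166 (lower). The size of the change differed between members, with a lower quartile of 0.12 and an upper quartile of 0.72.

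**Figure D2:**
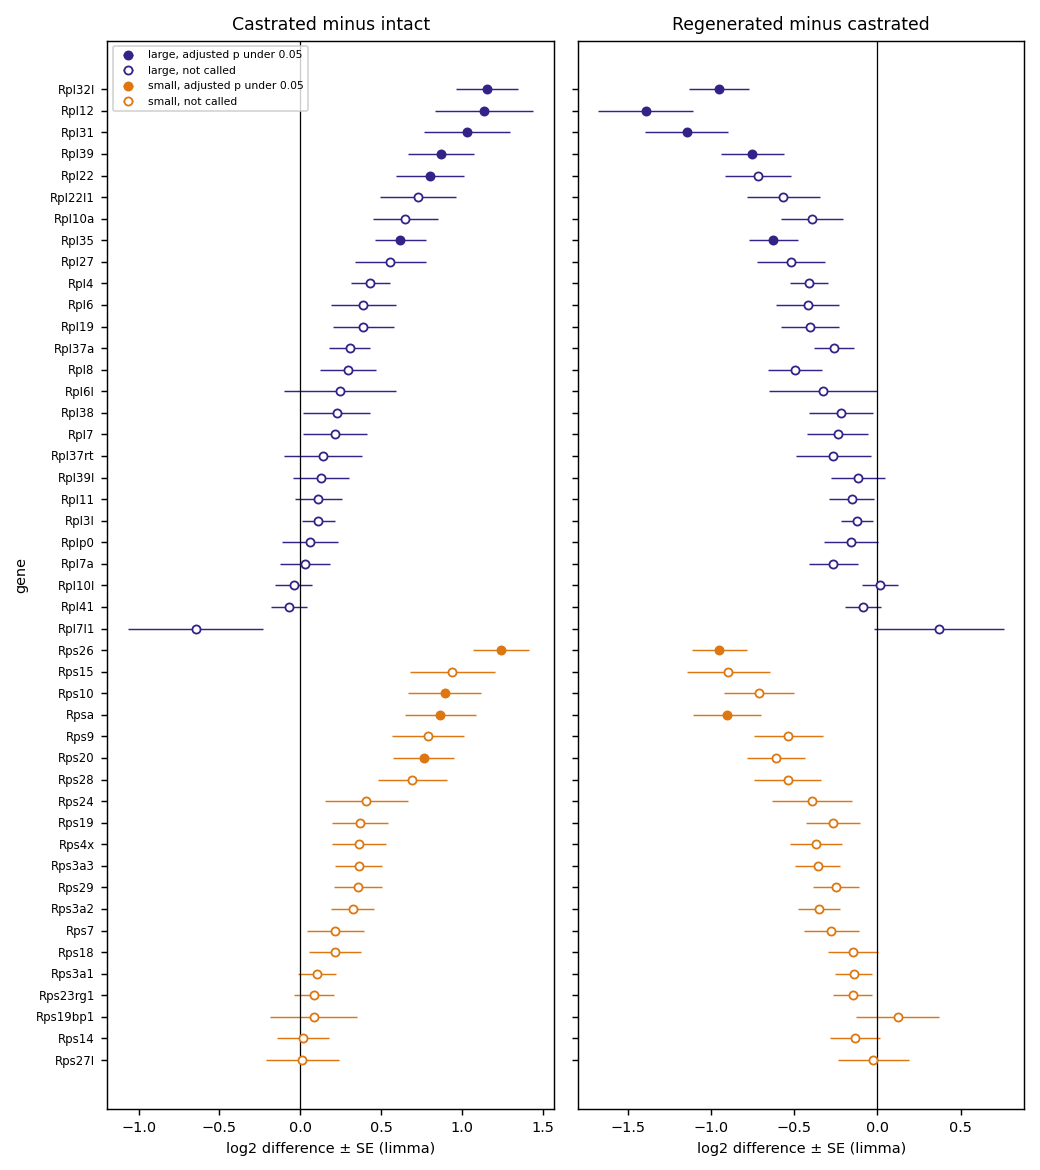
Log2 difference with its standard error from limma for each of the 46 genes, castrated minus intact on the left and regenerated minus castrated on the right; filled points have an adjusted p under 0.05, purple is large and orange is small subunit. On the left 10 points are filled, all above 0, and on the right 7 are filled, all below 0; both panels use the same castrated arrays.

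Of the large subunit symbols 6 of 26 were called higher in castrated arrays, and 23 of 26 differences were above 0. Rpl12, a protein of the stalk base where translation factors dock, read 15.46, 15.42 and 15.61 in intact arrays and 16.36, 16.76 and 16.78 in castrated arrays. It read 15.67, 15.31, 15.61 and 14.39 in regenerated arrays, and the castrated arrays were above all others. Its difference was 1.14 ± 0.30 (limma, SE; adjusted p = 0.047). Rpl31, which lies by the exit tunnel of the nascent chain, read 9.67, 10.10 and 10.34 in intact arrays, 10.84, 11.27 and 11.10 in castrated arrays and 10.26, 9.81, 10.07 and 9.56 in regenerated arrays. Again the castrated arrays stood clear of both other groups, with a difference of 1.03 ± 0.27 from intact (limma adjusted p = 0.040).

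Rpl39, a very small protein lining the same tunnel, read 8.15, 8.06 and 8.14 in intact, 8.92, 8.74 and 9.30 in castrated and 8.38, 8.22, 8.33 and 8.03 in regenerated arrays. Castrated arrays did not overlap either other group (0.87 ± 0.20 above intact, limma adjusted p = 0.026). Rpl35, at the mouth of the tunnel, differed by 0.62 ± 0.16 (limma adjusted p = 0.037), with 18.14 ± 0.01 (SD, n = 3) in intact arrays and 18.76 ± 0.11 (n = 3) after castration. Rpl22, an RNA-binding subunit that cells can do without, read 8.58, 8.55 and 8.81 in intact and 9.32, 9.45 and 9.59 in castrated arrays, and its regenerated arrays at 9.00, 8.56, 8.89 and 8.49 spanned the intact range. The difference was 0.80 ± 0.21 (limma adjusted p = 0.044). Rpl32l, a gene named for its likeness to Rpl32, was 14.39 ± 0.15 (n = 3) in intact and 15.54 ± 0.31 (n = 3) in castrated arrays, a difference of 1.15 ± 0.19 (limma adjusted p = 0.0054).

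Among the small subunit symbols 4 of 20 were called higher in castrated arrays, and 20 of 20 differences were above 0. Rps26, at the channel where the messenger RNA leaves, read 16.44, 16.31 and 16.45 in intact arrays and 17.32, 17.68 and 17.93 in castrated arrays, with 16.85, 16.74, 16.70 and 16.47 in regenerated arrays. Here the regenerated arrays lay between the groups, each just above every intact array and below the castrated ones. The difference of 1.24 ± 0.18 had the smallest adjusted p of the set (limma, 0.0021). Rpsa, the protein also known as the laminin receptor precursor, read 12.63, 12.57 and 12.69 in intact, 13.51, 13.43 and 13.55 in castrated and 12.61, 12.76, 12.85 and 12.17 in regenerated arrays. Its castrated arrays lay within a narrow band above both other groups (0.87 ± 0.22 above intact, limma adjusted p = 0.037).

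Rps10 and Rps20, subunits of the small subunit head that are marked with ubiquitin when ribosomes collide, rose as well. Rps10 read 10.39, 10.39 and 10.35 in intact and 11.05, 11.16 and 11.61 in castrated arrays (0.89 ± 0.22, limma adjusted p = 0.036). Rps20 read 7.63, 7.73 and 7.88 in intact and 8.47, 8.26 and 8.81 in castrated arrays (0.76 ± 0.19, limma adjusted p = 0.034). For both, castrated arrays did not overlap the intact or the regenerated arrays. The uncalled members with the smallest p were Rps9 (0.79 ± 0.22, limma adjusted p = 0.055) and Rps15 (0.94 ± 0.26, limma adjusted p = 0.056), both small subunit proteins near the decoding site. Without regenerated replicate 4, Rps15 was called (limma adjusted p = 0.015).

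Most canonical subunits were not called. Rplp0, which anchors the stalk and is often used as a reference gene, was 13.96 ± 0.03 (n = 3) in intact and 14.02 ± 0.02 (n = 3) in castrated arrays, and Rps14, at 7.38 ± 0.03 in intact arrays, differed by 0.02. Rpl41 lay close to the top of the scale, at 19.71 ± 0.01, 19.65 ± 0.08 and 19.56 ± 0.18 in intact, castrated and regenerated arrays (n = 3, 3 and 4), where the highest value of any row was 19.93. Rpl4, with 18.23 ± 0.08 in intact and 18.66 ± 0.09 in castrated arrays, did not overlap between the groups and did not pass the test (limma adjusted p = 0.057).

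**Figure D3:**
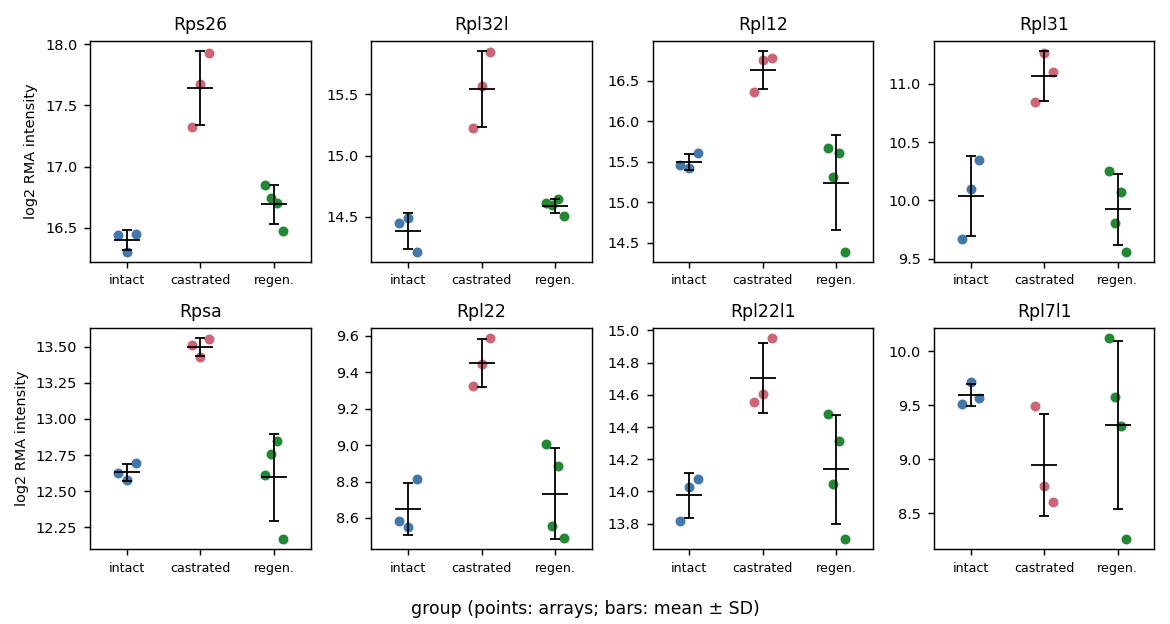
Log2 intensity of 8 genes in every array (points; intact, castrated and regenerated), with the group mean and SD as bars; each panel has its own axis, which does not start at 0. Castrated arrays lie above all others for the first 7 genes; Rpl7l1 shows overlap between castrated and regenerated arrays and a regenerated range from 8.26 to 10.12.

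The counts of called genes depended on single arrays. Between castrated and intact cells limma called 2, 2 and 4 members when intact replicates 1, 2 and 3 were left out in turn. Over all genes 3.38%, 3.98% and 6.74% were then called. It called 3, 4 and 2 members without castrated replicates 1, 2 and 3, beside 6.25%, 4.89% and 5.38% of all genes. Without regenerated replicate 2, 3 or 4 it called 3, 5 and 16 members, beside 6.83%, 6.84% and 10.9% of all genes. Several of these member counts are thus near the share over all genes. The called members were all higher in each of these fits, and the median difference stayed between 0.25 and 0.41. Rpl32l was called under 21 of 21 alternatives and Rps26 under 21 of 22, while Rpl12 was called under 8 of 21 and Rpl22, Rpl35 and Rps10 under 11 of 22 each. For canonical members these include canonical subunits alone, which is the main fit itself and keeps their calls by construction. Rps26 has 3 rows, and with their mean in place of the chosen row its difference was 0.19 (limma adjusted p = 0.82). The gene and the chosen row lie on chromosome 10, and the other rows lie elsewhere. A second row, on chromosome 8, rose by 1.66 (14.90 ± 0.12 to 16.56 ± 0.34). Another, on chromosome 12, read 6.68 ± 1.75 in intact and 4.35 ± 1.16 in castrated arrays.

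For 6 members the chosen row lay on another chromosome than the gene (Rpl12, Rpl27, Rpl31, Rpl35, Rpl41 and Rpl7a), which was so for 0.219% of 19175 coding rows outside the set. Processed copies of these genes share their sequence, and the array cannot be said to read the named gene there. On its own chromosome Rpl35 has a row at 16.12 ± 0.02 in intact and 16.33 ± 0.09 in castrated arrays (difference 0.22, limma adjusted p = 0.42), so its call is not seen in that row. Neither Rpl12 nor Rpl31 has a row of its symbol alone on its own chromosome. A row there shared by Rpl31 and Rpl31-ps12 was 14.06 ± 0.02 in intact and 14.23 ± 0.03 in castrated arrays, a difference of 0.16 (limma over every non-control row, adjusted p = 0.73), so the rise given for Rpl31 is not seen in it. A row there shared by Rpl12 and Snora65 was 9.84 ± 0.10 and 10.84 ± 0.04, a difference of 0.99 that did not pass the test (limma over every non-control row, adjusted p = 0.052). With own-chromosome rows of a single symbol in place of the 6, and Rpl12 and Rpl31 left out, 7 of 44 members were called, all higher. Over all genes 7.99% were called in that fit.

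After testosterone the genes were lower than in castrated cells. Limma called 7 of 46, all lower (15.2%), where 4.98% of all genes were called, 1.97% higher and 3.01% lower, and 11.6% of the 10004 genes with measurable signal. The median difference was -0.35, against -0.01 over all genes. Regenerated arrays lay below all castrated arrays for 29 of 46 genes and above them for 0, where 9.51% and 6.53% of all genes did so. Among the 10004 genes with measurable signal 1672 lay below and 1099 above. This contrast shares its castrated arrays with the one above, so the opposite sign is no independent result.

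The called members were Rpl12 (-1.39 ± 0.29, limma adjusted p = 0.020), Rpl31 (-1.14 ± 0.25, limma adjusted p = 0.027), Rpl32l (-0.95 ± 0.18, limma adjusted p = 0.014), Rps26 (-0.95 ± 0.16, limma adjusted p = 0.0085), Rpsa (-0.90 ± 0.20, limma adjusted p = 0.032), Rpl39 (-0.75 ± 0.19, limma adjusted p = 0.0496) and Rpl35 (-0.62 ± 0.15, limma adjusted p = 0.037). Rpl22 (-0.72 ± 0.20, limma adjusted p = 0.069) and Rps15 (-0.89 ± 0.25, limma adjusted p = 0.070) came next and were not called. Without regenerated replicate 4, Rpl12 fell by 1.11, and Rpl39 was not called (limma adjusted p = 0.060). The median over the set was -0.27 and 6 members were called without replicate 4, where 7.06% of all genes were called.

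As with castration, this count moved with single arrays. It was 4 and 3 when intact replicate 1 or 2 was left out, where 3.71% and 3.49% of all genes were called. It was 4, 1 and 2 for castrated replicates 1, 2 and 3 (3.79%, 2.71% and 3.32% of all genes). Without regenerated replicate 2 it was 2 (2.89% of all genes). It was also 1 when the intact arrays were left out of the model altogether (2.73% of all genes).

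No member passed the test between regenerated and intact cells. Limma called 0 of 46 genes, where 0.0365% of all genes were called, 0.0332% higher and 0.00332% lower. An unadjusted p under 0.05 was seen for 0 of 46, and for 1627 of the 10004 genes with measurable signal. The median difference was -0.0029 and the range was -0.28 to 0.29. The members with the smallest p were Rps26 (0.29 ± 0.16, limma adjusted p = 0.62) and Rpl7a (-0.23 ± 0.15, limma adjusted p = 0.67). The Rps26 row on chromosome 8, not the chosen one, differed by 0.58 (limma over every non-control row, unadjusted p = 0.019, adjusted p = 0.52). The Rps26 row on chromosome 12 differed by -1.63 (unadjusted p = 0.061 in the same limma fit). The arrays of the groups did not overlap for Rps26, Rpl10a and Rpl32l, higher in regenerated arrays, and for Rpl8, lower, which is 3 and 1 of 46 against 6.42% and 3.23% of all genes. Without regenerated replicate 4 the median was 0.08 and 0 genes were called. A p that misses the threshold does not show that the levels are equal.

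Large and small subunit genes had similar median changes, while large minus small means within arrays were highest in intact cells for the canonical subunits. The mean over the 26 large subunit symbols was 12.19 ± 0.04 in intact, 12.57 ± 0.11 in castrated and 12.16 ± 0.23 in regenerated arrays (n = 3, 3 and 4). Over the 20 small subunit symbols it was 12.10 ± 0.06, 12.55 ± 0.16 and 12.16 ± 0.16. The median difference between castrated and intact cells was 0.30 for large and 0.36 for small subunit symbols, and between regenerated and castrated cells it was -0.36 and -0.35. Large minus small medians were -0.06 and -0.00412 for these comparisons and -0.05 for regenerated minus intact.

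Within single arrays, the large minus the small mean was 0.12, 0.09 and 0.08 in intact, 0.00, 0.11 and -0.05 in castrated and 0.08, -0.02, 0.05 and -0.07 in regenerated arrays. Castrated replicate 2 lay within the intact range and the other castrated arrays below it, and the 4 regenerated arrays all lay below it (highest 0.0765, lowest intact 0.0838). Over canonical subunits alone it was 1.75 to 1.80 in intact, 1.58 to 1.73 in castrated and 1.60 to 1.72 in regenerated arrays, so that every castrated and regenerated array lay below every intact one. The level of this value depends on the probes, so it is read between arrays only. The members read from a row on another chromosome are all canonical large subunits, and this value was not computed without them. Among canonical subunits 5 of 18 large and 4 of 15 small ones were called higher after castration, with medians of 0.39 and 0.41. Differences above 0 were seen in 17 of 18 and 15 of 15. After testosterone 4 of 18 and 2 of 15 were called lower, with medians of -0.41 and -0.39. Differences below 0 were then seen in 18 of 18 and 15 of 15. Over all genes 4.82% were called higher after castration and 3.01% lower after testosterone. No test was made on these sums over members.

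**Figure D4:**
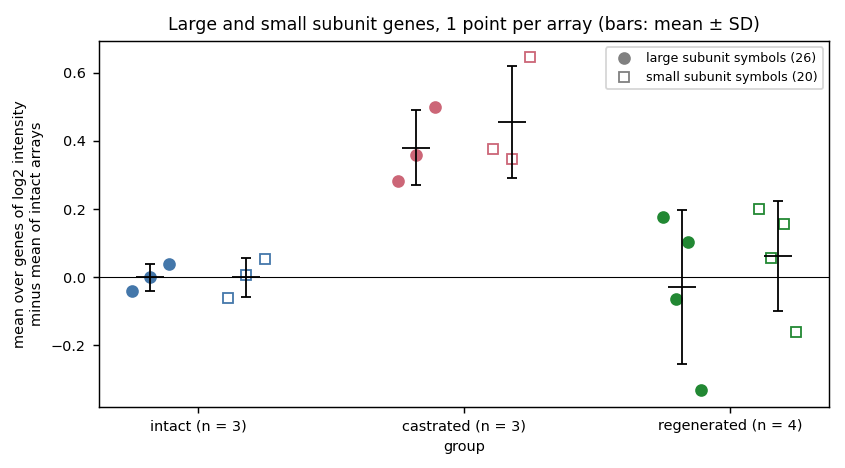
Mean over the 26 large (filled circles) and 20 small (open squares) subunit genes of log2 intensity minus the intact mean, 1 point per array, with group mean and SD as bars. Both subunits sit above 0 in all 3 castrated arrays, and the lowest regenerated point of each is replicate 4.

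The paralogs did not follow a single pattern. Rpl22l1, the paralog of Rpl22, read 13.82, 14.03 and 14.08 in intact and 14.55, 14.61 and 14.95 in castrated arrays, groups that do not overlap, without passing the test (0.73 ± 0.23, limma adjusted p = 0.092). Rpl7l1, the Rpl7-like protein of the early large subunit, read 9.51, 9.71 and 9.57 in intact, 9.49, 8.75 and 8.60 in castrated and 10.12, 9.58, 9.31 and 8.26 in regenerated arrays. Its castrated arrays lay below the intact ones (-0.65 ± 0.42, limma adjusted p = 0.44), where Rpl7 itself was 10.29 ± 0.09 and 10.50 ± 0.10 in intact and castrated arrays; the difference between this pair was not tested. Rpl7l1 also had the largest within-group spread of the 46 genes (SD 0.57), followed by Rpl6l (0.44), Rpl12 (0.41), Rps15 (0.32) and Rps19bp1 (0.32).

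Rps27l, a p53-induced paralog of Rps27, was 14.18 ± 0.22, 14.19 ± 0.27 and 14.17 ± 0.24 in the 3 groups. Rps19bp1, which binds Rps19 and is no ribosomal subunit, differed by 0.08 ± 0.27 between castrated and intact arrays, and Rps19, whose loss causes Diamond-Blackfan anaemia, by 0.37 ± 0.17 (limma adjusted p = 0.26). Rps3a2 and Rps3a3, pseudogenes in RefSeq, differed by 0.33 ± 0.13 and 0.36 ± 0.14, and Rps3a1, the gene they resemble, by 0.10 ± 0.12, none of them called. Rpl6l, also a pseudogene in RefSeq, differed by 0.24 ± 0.34 and Rpl6 by 0.39 ± 0.20. The retrogene-like Rpl37rt differed by 0.14 ± 0.24. Rpl3l, known from striated muscle, Rpl10l and Rpl39l, known from testis, and Rps23rg1 read under the highest background value in every group.

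The promoters of these genes share letters that most promoters lack, and some are shown here. A link between these letters and the changes between groups was not tested. RefSeq promoters (GRCm38.p6, from position -250 to 50 around the start) were found for 38 of the 46 genes and 28 of the 33 canonical subunits. The motif CGGAAG, the core of sites bound by ETS family factors such as GABP, was present on either strand in 20 of 28 canonical promoters (71.4%) and in 18.8% of 27025 genes. Of the 9 canonical members called higher after castration 8 had a promoter in the table (Rps20 had none). The motif was held by 7 of these 8 and by 13 of the 20 uncalled members with a promoter. The following windows of 100 bases are written 5′ to 3′ on the strand of the gene, with CGGAAG or its reverse complement in capitals. The windows show it in 4 members called higher and, last, in Rps18, which was not called (0.22 higher in castrated arrays). They run from 70 bases before the start to 30 after it, except for Rps26, whose window lies 230 to 131 bases before.
Rpl39 (chrX:37085193-37085292, minus strand): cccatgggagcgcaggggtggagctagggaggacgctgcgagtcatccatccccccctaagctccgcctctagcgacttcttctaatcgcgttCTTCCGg
Rps10 (chr17:27635215-27635314, minus strand): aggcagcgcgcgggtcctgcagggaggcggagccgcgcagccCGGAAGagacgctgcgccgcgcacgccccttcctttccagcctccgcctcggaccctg
Rpsa (chr9:120127696-120127795, plus strand): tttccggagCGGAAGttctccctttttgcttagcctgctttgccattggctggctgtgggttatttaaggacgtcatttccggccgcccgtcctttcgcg
Rps26 (chr10:128626637-128626736, minus strand): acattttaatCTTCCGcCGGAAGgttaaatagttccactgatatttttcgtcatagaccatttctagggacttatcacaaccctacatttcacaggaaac
Rps18 (chr17:33955636-33955735, minus strand): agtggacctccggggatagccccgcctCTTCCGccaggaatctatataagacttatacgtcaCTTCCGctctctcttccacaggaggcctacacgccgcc

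Near the start (50 bases before to 50 after, gene strand) the pyrimidine motif CTTTC stood in 15 of 28 canonical promoters (53.6%) and in 14.6% of all genes. All 8 canonical members called higher that had a promoter held it, as did 7 of the 20 uncalled ones with a promoter. Related pyrimidine motifs, given below, did not all split this way. The letters of 3 other elements were slightly less common than over all genes: AGAACA, the core of the androgen receptor's element, was in 5 of 28 (17.9%, against 21.3% of all genes), TATAAA in 4 of 28 (14.3%, against 15.7%) and the Myc site CACGTG in 2 of 28 (7.1%, against 8.1%).

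The other letters searched over the whole window on both strands were CCGGAAG (14 of 28, 9.9% of all genes), GGGCGG (15 of 28, which is 53.6%, against 38.2%), CCAAT (7, 41.1%) and ATTGGT (2, 13.1%), of which CCGGAAG contains CGGAAG. Near the start they were CCTTTC (7, 4.8%), CTTTTC (5, 4.3%), TTTCCT (5, 6.3%), TCTTTCC (5, 1.5%), CTCTTTC (4, 1.6%) and CTTTCCG (1, 0.7%), most of which overlap CTTTC. Of the 8 called and 20 uncalled canonical members with a promoter, CCTTTC stood in 5 and 2, and CTCTTTC in 2 and 2. CTTTTC stood in 1 and 4, TTTCCT in 1 and 4, TCTTTCC in 0 and 5, and CTTTCCG in 0 and 1. The motifs described were picked after these counts were seen, so the shares are a description with no test. For Rpl12, Rpl31 and Rpl35 the array row lies on another chromosome than the promoter.

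Genes that build, run or regulate ribosomes were read from lists. Of 38 nucleolar and assembly factors 6 were called higher and 1 lower after castration, with a median difference of 0.26. Over all genes 4.82% were called higher and 3.19% lower, and 18.1% of the genes with measurable signal were called, so this count and those of the lists that follow are near the background or rest on a few genes. Nop58, a core protein of box C/D small nucleolar particles, rose by 1.82 ± 0.49 (limma adjusted p = 0.049), Nhp2, of the H/ACA particles, by 1.47 ± 0.35 (limma adjusted p = 0.029) and Emg1, an RNA methyltransferase, by 1.02 ± 0.22 (limma adjusted p = 0.020). Bop1, which processes large subunit RNA, was the one called lower, from 9.79 ± 0.17 to 8.43 ± 0.54 (limma adjusted p = 0.022). After testosterone 4 of 38 were called lower, namely Nop58, Ncl, Npm1 and Gtpbp4. Npm1, a nucleolar chaperone, was at 15.41 ± 0.05, 16.28 ± 0.34 and 15.36 ± 0.26 in intact, castrated and regenerated arrays.

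Of 14 RNA polymerase I genes 2 were called higher after castration, the polymerase subunits Twistnb (1.07 ± 0.25, limma adjusted p = 0.025) and Znrd1 (0.79 ± 0.21, limma adjusted p = 0.046). Twistnb was called lower after testosterone. Of 25 initiation factors 2 were called higher after castration, the eIF3 subunits Eif3f (9.17 ± 0.19 to 10.15 ± 0.10, limma adjusted p = 0.024) and Eif3e (11.46 ± 0.17 to 12.31 ± 0.10, limma adjusted p = 0.049). Eif3e was called lower after testosterone. Of 9 elongation factors limma called 0 in either contrast, with an unadjusted p under 0.05 for 3 after castration and 1 after testosterone. Among the 10004 genes with measurable signal 3820 and 3408 had such a p. Eef2, the translocation factor, was 15.82 ± 0.16 in intact arrays and 14.95 ± 0.46 after castration (limma adjusted p = 0.077), and Eef1a1, which delivers transfer RNA, was 18.76 ± 0.01 and 18.76 ± 0.06. Fau, a ribosomal protein made as a ubiquitin-like fusion and outside the symbols of the set, was 13.78 ± 0.30, 14.77 ± 0.12 and 13.84 ± 0.54 in the 3 groups and was not called (limma adjusted p = 0.084 after castration).

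Regulators of ribosome production that changed were lower after castration. Of 25 genes around mTOR and Myc 5 were called lower and 0 higher after castration, with a median of -0.36. This share is close to the 18.1% called among genes with measurable signal. The 5 lower genes were Eif4ebp1, which binds the cap-binding factor eIF4E (11.65 ± 0.21 to 9.08 ± 0.02, limma adjusted p = 0.015), Mxd4, a Myc antagonist (10.62 ± 0.24 to 8.89 ± 0.52, limma adjusted p = 0.0040), Larp4, a poly(A)-binding protein, and Sesn1 and Sesn2, which restrain mTORC1. After testosterone 2 were called higher, Mxd4 and Ddit4, another mTORC1 inhibitor (5.49 ± 0.41 to 7.32 ± 0.59, limma adjusted p = 0.0065). Of 13 quality control and dormancy genes Habp4, which binds idle ribosomes, fell by 1.42 after castration (limma adjusted p = 0.013) and rose by 1.44 after testosterone (limma adjusted p = 0.012), and no other was called. Between regenerated and intact cells limma called 0 genes of these 7 lists. An unadjusted p under 0.05 was seen for 4 mTOR and Myc genes, 1 gene each of the initiation, assembly, polymerase and quality control lists, and 0 elongation factors. Among the 10004 genes with measurable signal 1627 had such a p.

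Markers of other cells also moved between the groups, and their part in the ribosomal values was not tested. Luminal markers were well measured in all arrays (0 of 10 under background), with summed log2 intensities of 132.8 to 135.5 in intact, 138.8 to 141.6 in castrated and 128.7 to 135.2 in regenerated arrays; Krt18 rose by 1.41 and Hoxb13, whose promoter drives the sorted label, fell by 2.65 after castration. Basal markers (6 of 8 under background) summed to 44.75 to 46.14, 48.30 to 48.92 and 46.92 to 50.20. Krt17 and Krt14 were called higher after castration, though both lay under background in every group. The basal markers above background were not called. In intact, castrated and regenerated arrays Krt15 was 9.95 ± 0.13, 11.14 ± 0.62 and 12.48 ± 1.24, and Dst was 7.68 ± 0.51, 7.13 ± 0.27 and 7.08 ± 0.23. Leukocyte markers (9 of 11 under background) summed to 49.59 to 51.67, 52.73 to 60.96 and 48.24 to 53.86. Ptprc, the CD45 gene, was under background throughout. Itgam, the CD11b gene, was also under it and called higher after castration (3.91 ± 0.07 to 4.29 ± 0.12). Above background, Cd3e was 7.05 ± 1.46, 10.45 ± 1.91 and 6.40 ± 0.74 in the 3 groups. It was not called after castration (3.39, limma adjusted p = 0.051) and was called lower after testosterone (-4.04, limma adjusted p = 0.025). Cd68, also above background, was 8.27 ± 1.22, 8.92 ± 0.91 and 8.43 ± 0.69 and was not called. Stromal markers (8 of 9 under background) summed to 42.12 to 43.47, 37.91 to 40.83 and 41.17 to 42.85, with Col1a1 under background and Dcn 4.70 lower after castration. Endothelial (6) and neuroendocrine (4) markers were all under background, with summed ranges from 22.44 to 24.86 and 13.94 to 14.45 over all arrays.

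Most members had similar profiles across the arrays. Over the 10 arrays, which share their groups, the correlation of a canonical subunit with the canonical mean, of which it is part, ran from 0.40 (Rpl41) to 0.99 (Rpl4), with a median of 0.92. Rpl7l1 had -0.16. Of 9962 genes above background outside the set, those closest to the canonical mean were Gm14036 (0.996), Gm6344 (0.995), Rpl29-ps2 (0.992), Gm10913 (0.992) and Gm12508 (0.991), all pseudogenes in RefSeq. Gm6344 was 15.58 ± 0.06 in intact, 16.50 ± 0.25 in castrated and 15.67 ± 0.40 in regenerated arrays.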

How the data were processed

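RNA of sorted luminal cells was measured on 10 arrays, 3 intact, 3 castrated and 4 regenerated, grouped by their titles. The authors deposited log2 values; RMA and Affymetrix Expression Console are the tools named, per the submitters' processing notes, and versions and the genome build of the array design are not given in the sources used here. Of 65956 non-control rows, 30604 had 1 gene symbol, 2146 several and 33206 none, and 827 symbols were updated against RefSeq GRCm38.p6, which left 30142 genes after the highest-mean row was taken for 355 genes with several. Per the labels' protocols, only RNA of integrity number 9 or more was used.

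All genes went through limma 3.58.1 (R 4.3.3; lmFit, then eBayes with trend) in 1 model of the 3 groups on the 10 arrays, with 7 residual degrees of freedom, two-sided tests and Benjamini-Hochberg adjustment over all 30142 genes within a contrast. The script was tested on simulated data. The members, gene lists and tests were chosen with earlier results of these data known. The split into canonical subunits and others was completed after the values were seen. Alternatives were another variance model, array weights, another scaling, a filter on low values, the mean of a gene's rows, the 2 groups alone, the replicate number as a block, canonical subunits alone and each array left out. Own-chromosome rows and adjustment over every non-control row were added after seeing the data.

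Named were all called members, the 2 uncalled members with the smallest p per contrast, every paralog with its partner, the 5 most variable members, up to 4 called genes per list or the 2 with the smallest p, and the 5 genes most like the canonical mean. Rplp0, Rps14, Rps18, Rpl4, Rpl41, Rpl10a and Rpl8, further called genes of lists, and marker genes were named after their values were seen. Promoter letters were counted in a RefSeq table; 2 longer motifs were also tried and are not described. Rpl6l, Rpl7, Rpl8, Rps14, Rps20, Rps29, Rps3a2 and Rps3a3 were not matched there.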

Additional observations from a re-analysis of the deposited data

Results flagged for a closer look

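Within the 4 regenerated arrays, 2 of 33 items examined had an array far from the others, where chance gives about 1 in 20. Rps15 read 13.76 in regenerated replicate 4 and 14.42 to 14.56 in the other regenerated arrays. Rpl3l read 3.41 in regenerated replicate 2 and 3.68 to 3.73 in the others, all under the highest background value. Regenerated replicate 4 is also the array that stood apart over all genes.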

How the results depend on the processing

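Under every alternative run the called members were all higher in castrated than in intact arrays and all lower in regenerated than in castrated arrays, and no value reversed, where a change of sign between uncalled values was not counted. Against 10 calls after castration, there were 4 with median centring and 3 with adjustment over every non-control row. There were 16 with the filter on low values, which kept 42 members. In this order, 7.08%, 3.69% and 26.3% of all that was tested was called, against 8.01%. Against 7 calls after testosterone, there were 11 with no variance trend, 12 with the filter and 1 with only the 2 groups compared. There were 4 with own-chromosome rows and 4 with every non-control row. The shares of all that was tested were, in this order, 5.44%, 18.4%, 2.73%, 4.97% and 2.22%, against 4.98%. The large minus small median moved to 0.024 with the filter and -0.13 with own-chromosome rows after castration, and to 0.092 with own-chromosome rows after testosterone. The causes were not tested. With each array left out, the calls ran from 2 to 16, from 1 to 6 and stayed at 0 for regenerated against intact; the medians ran from 0.25 to 0.41, -0.42 to -0.24 and -0.05 to 0.08, and large minus small from -0.071 to 0.0054, -0.047 to 0.054 and -0.10 to -0.03. Same-numbered arrays correlated at -0.20 to 0.34 after removal of group means, and 2 of 9 arrays correlated best with their own number, so the numbers were not taken to pair samples. With the replicate block 12, 5 and 0 members were called and the medians were 0.36, -0.27 and 0.08. Over all genes 9.01%, 5.43% and 0.0133% were called. Only the regenerated group has a number 4, so the block fits that array exactly. These differences are thus those without regenerated replicate 4, and not a separate check of them. Of the values of single named genes over the 3 contrasts, 1699 kept their side of the threshold, 133 lost a call and 25 gained one. Most of these values belong to genes not called in the main fit, which had no call to lose. Among called members, calls were kept from under 6 of 22 alternatives (Rpl39 after testosterone) to 21 of 21 (Rpl32l after castration). Values near the background and near 19.93 are compressed.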

Other observations

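The 53 rows that name a ribosomal protein gene beside another gene or pseudogene were read with limma fitted over every non-control row. Of them 7 were higher and 0 lower in castrated than in intact arrays (13.2%, against 3.69% of all rows), with a median difference of 0.42. Between regenerated and castrated arrays 0 were higher and 8 lower (15.1%, against 2.22%), with a median of -0.45, and between regenerated and intact arrays 0 were called. A row shared by Rps27 and Rps27rt was 15.87 in intact, 17.76 in castrated and 16.12 in regenerated arrays (limma adjusted p = 0.0024 after castration). A row for Rpl36 and a pseudogene was 14.25, 15.57 and 14.47 (limma adjusted p = 0.011), and a row for Rpl32 and a pseudogene was 17.77, 18.56 and 17.97 (limma adjusted p = 0.0082). The row that names Rps15a with a pseudogene was 6.26, 6.89 and 6.14, and passed the test after testosterone alone (limma adjusted p = 0.035). Most of the 53 rows name subunits outside the set, but 4 also name a member (Rpl12 in 2 rows, Rpl31 and Rpl37rt in 1 each), and 1 of these, shared by Gm9396 and Rpl12, is among the 8 (limma adjusted p = 0.035). These rows cannot be given to 1 gene.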
